A study of Mus musculus with 8 samples.

Results

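Cadherins and protocadherins are transmembrane adhesion proteins, and the genes described here were taken by name from a mouse gene table. All symbols made of Cdh and a number, or starting with Pcdh, were included, apart from Cdh5 and Cdh19. This gave 91 of the 53801 rows of the table, which carry 90 symbols because Pcdha11 is listed under 2 identifiers. The 91 rows are 21 cadherins, 12 non-clustered protocadherins and 58 members of the clustered protocadherin arrays (14 alpha, 22 beta and 22 gamma). Of these, 27 passed the filter on low counts and were tested, 6 had some counts but did not pass, and 58 had 0 counts in all 8 libraries.

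Classical cadherins bind the same cadherin on a neighbouring cell in a calcium-dependent way, and their cytoplasmic tails recruit p120 and beta-catenin, which couple them through alpha-catenin to actin. Type I members such as E-cadherin hold epithelia together, whereas type II members such as cadherin-11 are typical of mesenchymal cells, fibroblasts among them. Non-clustered protocadherins bind more weakly and signal through tails that contact phosphatases and actin regulators, while the clustered genes are read from alternative promoters and give neurons a surface identity.

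RNA was sequenced from stromal cells sorted as negative for CD45 (a leukocyte surface protein) and CD31 (an endothelial one) from the small intestine, from ulcers of LTβR-YFP mice treated with indomethacin, which blocks cyclooxygenases and damages the gut lining. The groups were YFP-positive cells (4 libraries) and YFP-negative cells (4 libraries), and the reporter strain, the sort on CD45 and CD31, and indomethacin were common to both. How YFP expression relates to Ltbr, the promoter behind the reporter, the age of the mice and whether animals were pooled are not stated in the labels. They number the replicates 1 to 4 in each group but do not say that these are separate animals, and p-values therefore cover library-to-library spread alone, which may be technical.

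Total counts ran from 14564835 to 29385718 in YFP-positive libraries and from 12481608 to 28931436 in YFP-negative libraries. Replicate number 2 had the lowest total in each group, below every library of the other numbers. A principal component analysis placed number 2 of each group away from the others: its first axis had 78.7 (YFP-positive) and 92.5 (YFP-negative) there, against -46.2 to -12.4 in the other 6 libraries. The part of depth in this separation was not tested. Ltbr itself averaged 79.7 ± 14.1 CPM (read counts per 1e6 after TMM scaling of the library totals) in YFP-positive cells and 71.3 ± 13.8 CPM in YFP-negative cells (SD, n = 4 each), and the groups overlapped. The sorted genes were low beside the fibroblast genes but present in every library. Pecam1, which encodes CD31, had 11.1 to 45.8 CPM in YFP-positive libraries and 11.3 to 46.9 CPM in YFP-negative libraries. Its mean of 27.2 CPM over the 8 libraries was above that of most tested members. Ptprc, which encodes CD45, had 2.08 to 12.2 CPM in YFP-positive libraries and 0.877 to 4.68 CPM in YFP-negative libraries. Fibroblast genes were abundant in every library, with Col1a1 at 4299 to 8304 CPM in YFP-positive libraries and 4909 to 11349 CPM in YFP-negative libraries. The summed level of 8 pan-fibroblast markers was lower in the YFP-positive library of all 4 pairs of equal replicate number (24825 to 38446 CPM, against 29158 to 55010 CPM in YFP-negative libraries). Most of that sum was Col1a1, Col1a2 and Col3a1. With the replicate number as block, edgeR called 5 of the 8 genes lower and 0 higher at an adjusted p of 0.05 or below. Of all genes tested, 2.28% were called in that blocked fit. The list was not uniform. Fn1 had 2277, 2025, 1748 and 2506 CPM in YFP-positive libraries and 1903, 1851, 1546 and 2143 CPM in YFP-negative libraries, higher in 4 of 4 pairs. The smooth muscle sum was higher in 4 of 4 pairs (671 to 1309 CPM in YFP-positive libraries, 579 to 919 CPM in YFP-negative libraries), and the adventitial fibroblast and enteric glia sums were lower in 4 of 4. The blocked fit called 3 of 10 smooth muscle genes higher, 7 of 10 adventitial genes lower and 1 of 5 tested glia genes lower. Most of the adventitial sum was C3, with 9736 of 11100 CPM in YFP-positive library 1 and 14594 of 16451 CPM in YFP-negative library 1. The subepithelial fibroblast sum was higher in 3 of 4 pairs (5257 to 6678 CPM in YFP-positive libraries, 4415 to 7801 CPM in YFP-negative libraries). In number 2, the pair where it was lower, Tnc had 3686 CPM in the YFP-positive library and 4988 CPM in the YFP-negative one. The blocked fit called 4 of the 9 tested subepithelial genes higher and 0 lower. Pericyte markers were mixed: Rgs5, most of their sum, was lower in 4 of 4 pairs, Cspg4 and Abcc9 were higher in 4 of 4, and the list's median log2 fold change was 0.16.

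The members' message was dominated by 3 genes. Pcdh7, a delta-1 protocadherin, Cdh11, the type II cadherin of fibroblasts, and Pcdh9, another delta-1 protocadherin, together made up 70.4% to 84.1% of the members' summed CPM in YFP-positive libraries and 77.7% to 85.3% in YFP-negative libraries. The whole set summed to 854 to 1333 CPM in YFP-positive libraries and 786 to 1106 CPM in YFP-negative libraries. Divided by the total length of annotated exons, the mean level over the 8 libraries was 39.0 CPM per kb for Pcdh7, 30.4 for Cdh11, 24.5 for Pcdh9, 8.08 for Pcdh18, 3.84 for Cdh17, 3.33 for Cdh13 and 2.42 for Pcdh19. The mean ± SD ranges of neighbours in that order overlapped within each group, except between Pcdh9 (24.2 ± 5.10 CPM per kb in YFP-positive cells, 24.9 ± 1.45 in YFP-negative cells) and Pcdh18 (7.69 ± 2.02 in YFP-positive cells, 8.48 ± 2.59 in YFP-negative cells), and between Pcdh18 and Cdh17 (3.75 ± 1.78 in YFP-positive cells, 3.93 ± 1.24 in YFP-negative cells). The order depends on the length used, and the zeros described further on point to counting over whole genes with introns, an inference since the counting settings are not given. The level was also divided by the part of the gene body that no other gene of the same strand covers. By that length Pcdh18 came first at 3.09 CPM per kb, then Cdh11 at 1.83, Pcdh7 at 1.07 and Cdh24 at 0.415.

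**Figure D1:**
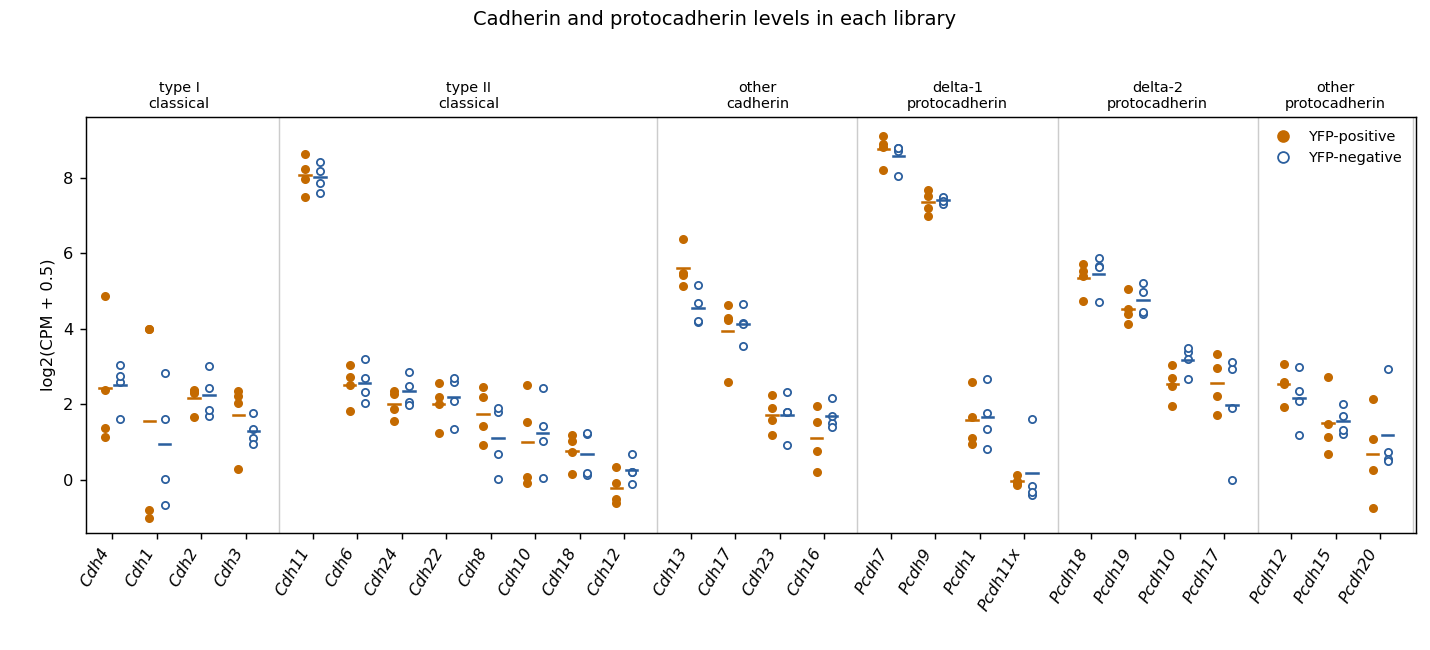
Level of each tested member in each library, as log2(CPM + 0.5), with YFP-positive libraries as filled points left of the YFP-negative libraries as open points and short lines for group means of the plotted values. Pcdh7, Cdh11 and Pcdh9 lie above the other members, and the 2 groups overlap for every gene shown.

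No member differed between the groups at an adjusted p of 0.05. With edgeR's quasi-likelihood test and Benjamini-Hochberg adjustment over the 15945 genes tested, 0 of 27 members and 0 genes in all (0%) were called, and the lowest adjusted p was 0.99985. Libraries of equal replicate number deviated together, and with that number as a block edgeR called 364 genes (2.28%) and 0 of 27 members, the lowest adjusted p of a member being 0.208. DESeq2 also called 0 members, with 2 genes called in all without the block (0.00680% of those with an adjusted p) and 496 with it (3.01%). At an unadjusted p of 0.05 or below it gave 1 member without the block, among 710 genes (2.41%), and 3 with it, among 1706 (10.3%). Limma voom called 0 members in either fit, with 0 genes called in all without the block and 613 (3.84%) with it, and at an unadjusted p of 0.05 or below it gave 1 member among 526 genes (3.30%) and 2 among 2056 (12.9%). At an unadjusted p of 0.05 or below, edgeR gave 1 member without the block, among 325 genes (2.04%), and 2 members with it, among 1772 genes (11.1%). The groups' ranges did not overlap for 247 genes (1.55%) and for none of the 27 members. The authors' deposited table has an adjusted p of 0.05 or below for 496 of 16502 genes (3.01%) and for 0 members. In bulk libraries such as these, fewer cells of a type and less RNA per cell cannot be told apart.

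The median log2 fold change of YFP-positive over YFP-negative cells was -0.05 over the 27 members and 0.00 over all genes tested, with 11 members above 0 and 16 below. With the block the median was -0.09, with 10 above and 17 below. In pairs of equal number, 4 of 27 members went the same way in 4 of 4, no larger a share than over all genes (3032, or 19.0%). Pcdh7 was higher, and Pcdh19, Pcdh10 and Cdh24 were lower. The smooth muscle marker sum was higher, and the pan-fibroblast, adventitial and glia sums lower, in the same 4 pairs, and their part in these members' values was not tested.

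**Figure D2:**
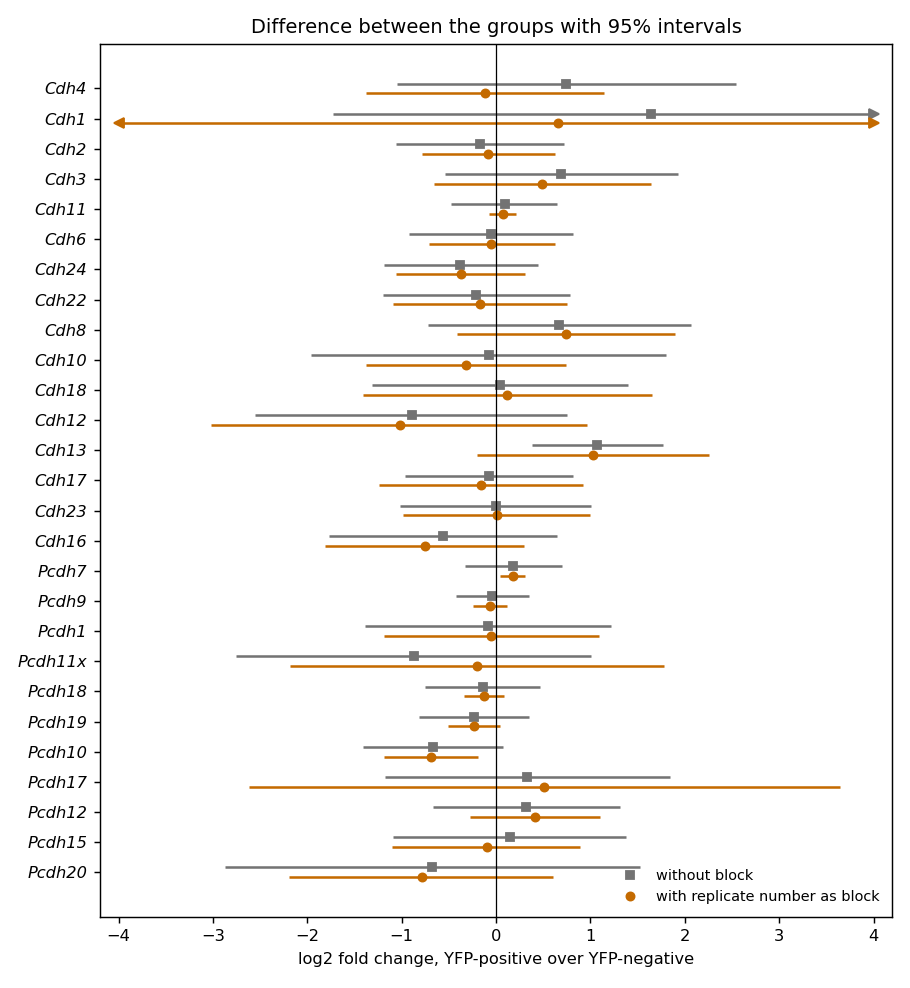
Log2 fold change of YFP-positive over YFP-negative cells for the 27 tested members, with 95% intervals from edgeR, without a block (grey squares) and with the replicate number as block (orange circles). Arrows mark intervals of Cdh1 that run past the axis; the block narrows the intervals of the abundant Pcdh7, Cdh11, Pcdh9 and Pcdh18, and no member passed the adjusted threshold in either fit.

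The proximal promoters of these 4 members are shown because they are the members with 1 direction in every pair. RefSeq (GRCm38.p6) gives the 250 bases upstream of each start; for Pcdh7 the 136 bases printed stop where the GENCODE gene begins. The windows lie at chr5:57717831-57717966 on the plus strand for Pcdh7, chrX:133688994-133689243 on the minus strand for Pcdh19, chr3:45378148-45378397 on the plus strand for Pcdh10 and chr14:54641365-54641614 on the minus strand for Cdh24. They are written 5′ to 3′ on the gene's strand, and capitals mark a GC box (GGGCGG, or CCGCCC where it lies on the other strand).
Pcdh7: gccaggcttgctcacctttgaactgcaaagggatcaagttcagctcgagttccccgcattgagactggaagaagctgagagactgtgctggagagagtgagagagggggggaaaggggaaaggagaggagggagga
Pcdh19: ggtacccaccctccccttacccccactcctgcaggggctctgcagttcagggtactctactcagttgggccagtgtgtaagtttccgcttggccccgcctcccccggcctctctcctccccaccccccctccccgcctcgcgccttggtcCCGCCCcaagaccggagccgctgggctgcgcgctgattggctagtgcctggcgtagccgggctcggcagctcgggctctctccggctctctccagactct
Pcdh10: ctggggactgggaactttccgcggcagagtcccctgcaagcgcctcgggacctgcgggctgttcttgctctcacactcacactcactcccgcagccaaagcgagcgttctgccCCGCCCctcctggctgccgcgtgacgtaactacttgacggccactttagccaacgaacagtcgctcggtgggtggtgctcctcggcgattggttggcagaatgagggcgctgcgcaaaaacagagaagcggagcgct
Cdh24: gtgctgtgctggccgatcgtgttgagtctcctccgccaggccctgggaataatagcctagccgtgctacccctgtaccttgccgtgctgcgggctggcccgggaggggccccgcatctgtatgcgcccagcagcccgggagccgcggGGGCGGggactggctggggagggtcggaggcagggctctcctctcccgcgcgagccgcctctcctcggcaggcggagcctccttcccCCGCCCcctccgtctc
The 250-base windows carry 0 (Pcdh7), 1 (Pcdh19), 1 (Pcdh10) and 2 (Cdh24) such boxes, and nothing about direction is read from 4 genes. Of 32851 RefSeq windows of that length, 32.7% hold at least 1 GC box. None of the 4 windows holds the E-box CAGGTG or its reverse CACCTG, the letters to which Snail and Zeb repressors bind in the E-cadherin promoter, which 17.2% of windows hold. None holds TATAAA or its reverse, which 12.4% of windows hold. A match of letters is a description of the window, not a binding site, and 16 of the 27 tested members had a promoter entry.

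Among the delta-1 protocadherins, Pcdh7 (ENSMUSG00000029108, chromosome 5, 57717967 to 58133230, plus strand, GRCm38) was the most abundant member. Its level was 447, 295, 469 and 548 CPM in YFP-positive libraries 1 to 4, against 412, 261, 440 and 438 CPM in YFP-negative libraries 1 to 4. Every YFP-positive library lay above its partner, but the groups overlapped, and number 2 was the lowest in both. The log2 fold change was 0.18 in both edgeR fits, with a 95% interval of 0.794- to 1.62-fold without the block and 1.03- to 1.24-fold with it, and an adjusted p of 0.99985 without the block and 0.230 with it. The authors' deposited table gives Pcdh7 a log2 fold change of 0.17 and an adjusted p of 0.175.

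Pcdh9 (chromosome 14, 93013410 to 93890679, minus strand) had 146, 126, 202 and 183 CPM in YFP-positive libraries and 174, 156, 179 and 166 CPM in YFP-negative libraries. Numbers 1 and 2 were lower in YFP-positive cells and numbers 3 and 4 were higher. In edgeR it gave a log2 fold change of -0.04 (SE 0.175) without the block and -0.06 (SE 0.0860) with it. The other 2 delta-1 genes, Pcdh1 and Pcdh11x, averaged 2.93 and 0.682 CPM over the 8 libraries.

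The delta-2 protocadherins, several of whose tails bind a complex that drives actin branching, include Pcdh19 and Pcdh10, both lower in all 4 pairs. Pcdh18 (chromosome 3, 49743296 to 49757325, minus strand) had 51.7, 26.2, 45.6 and 41.6 CPM in YFP-positive libraries and 57.6, 25.5, 49.9 and 49.0 CPM in YFP-negative libraries. It was lower in YFP-positive cells in 3 pairs, with number 2 the lowest in both groups, and its log2 fold change was -0.14 without the block and -0.13 with it. Pcdh19 (chromosome X, 133582860 to 133688987, minus strand), a gene mutated in a human epilepsy, had 22.7, 32.6, 17.1 and 20.6 CPM in YFP-positive libraries, against 31.1, 36.7, 20.3 and 21.3 CPM in YFP-negative libraries. The value was lower in all 4 pairs and the ranges overlapped. Pcdh19 had a log2 fold change of -0.23 in both edgeR fits, with adjusted p of 0.99985 without the block and 0.571 with it.

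Pcdh10 (ENSMUSG00000049100, chromosome 3, 45378398 to 45435623, plus strand), which is often silenced by promoter methylation in tumours, had 7.75, 6.01, 5.08 and 3.36 CPM in YFP-positive libraries and 10, 10.8, 8.63 and 5.82 CPM in YFP-negative libraries. All 4 YFP-positive libraries were below their partners, but YFP-negative library 4 lay within the YFP-positive range. The log2 fold change was -0.67 without the block and -0.69 with it, where the 95% interval was 0.437- to 0.880-fold and the edgeR adjusted p was 0.208. Pcdh17 had 2.79, 4.21, 7.24 and 9.58 CPM in YFP-positive libraries and 7.18, 8.18, 3.27 and 0.506 CPM in YFP-negative libraries. Its value was lower in YFP-positive cells in numbers 1 and 2 and higher in numbers 3 and 4, and the blocked interval ran from 0.163- to 12.5-fold. The fifth delta-2 gene, Pcdh8, did not pass the filter, with 7 reads in the YFP-positive libraries together and 18 in the YFP-negative ones.

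**Figure D3:**
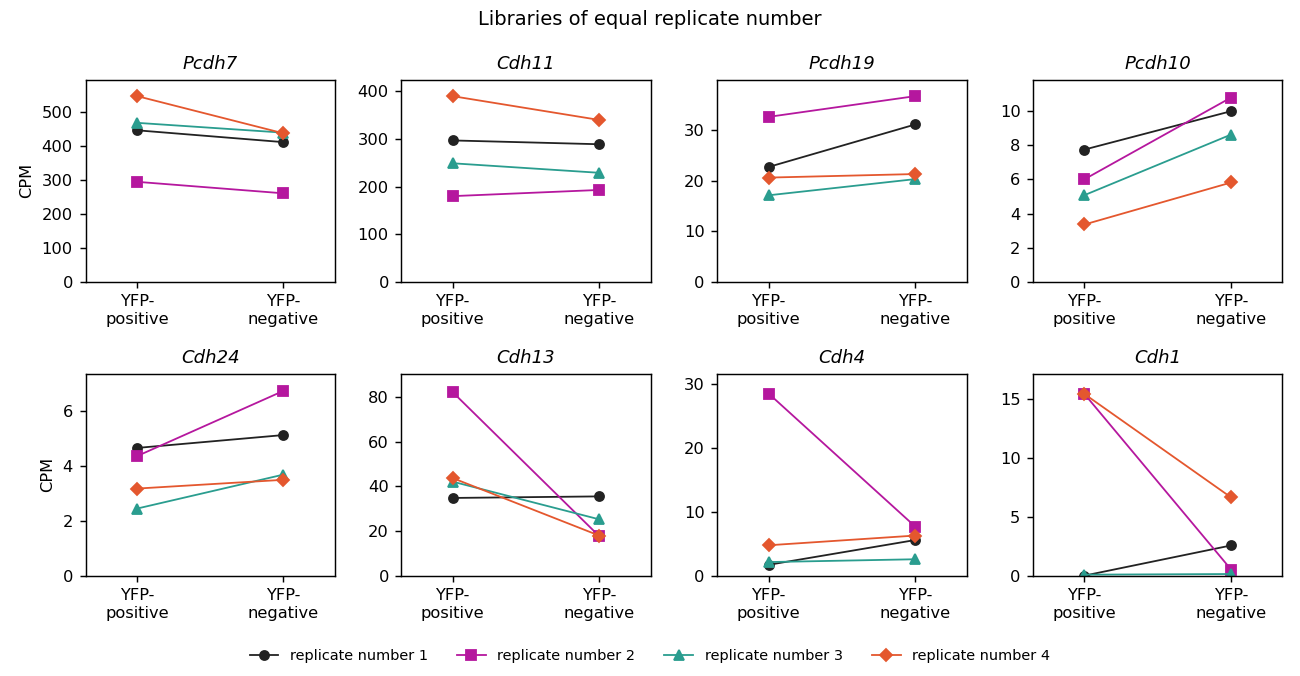
CPM of 8 members in YFP-positive (left) and YFP-negative (right) libraries, each line joining the libraries of 1 replicate number. Lines for Pcdh7 all run down to the right and those for Pcdh19, Pcdh10 and Cdh24 all run up, while replicate number 2 sets the highest points of Cdh13 and Cdh4.

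Cdh11 (ENSMUSG00000031673, chromosome 8, 102632095 to 102785642, minus strand), which fibroblasts use to adhere to each other, was the most abundant cadherin. It had 297, 180, 249 and 390 CPM in YFP-positive libraries, against 289, 193, 229 and 340 CPM in YFP-negative libraries. The 4 pairs followed each other closely, number 4 being the highest and number 2 the lowest in both groups, and 3 of the 4 were higher in YFP-positive cells. For Cdh11 the log2 fold change was 0.09 without the block and 0.07 with it, and the blocked 95% interval was 0.948- to 1.16-fold, so that differences of more than 1.16-fold upward lay outside it.

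The other 10 type II genes were far lower. Cdh6, the next most abundant in CPM, had 3.03, 7.67, 6.12 and 5.23 CPM in YFP-positive libraries and 6.01, 8.78, 4.48 and 3.64 CPM in YFP-negative libraries, higher in 2 pairs and lower in 2. Cdh24 (chromosome 14, 54631231 to 54641364, minus strand), named here after its values were seen, had 4.65, 4.35, 2.44 and 3.17 CPM in YFP-positive libraries and 5.12, 6.73, 3.68 and 3.49 CPM in YFP-negative libraries. It was lower in all 4 pairs with overlapping ranges, its log2 fold change was -0.38 without the block and -0.37 with it, and its blocked edgeR adjusted p was 0.786. Of the 8 type II genes tested, 3 had a log2 fold change above 0 and 5 below. Cdh7, Cdh9 and Cdh20 did not pass the filter, with 71, 26 and 25 reads over the 8 libraries.

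Type I classical cadherins summed to 7.52 to 50.8 CPM in YFP-positive libraries and 12.3 to 19.0 CPM in YFP-negative libraries, and single libraries set most of that spread. Cdh2, the N-cadherin of mesenchymal and neural cells, had 4.68, 2.69, 4.60 and 4.39 CPM in YFP-positive libraries and 4.90, 2.73, 7.59 and 3.14 CPM in YFP-negative libraries, with a log2 fold change of -0.17. Cdh4, or R-cadherin (chromosome 2, 179442431 to 179899373, plus strand), had 1.69, 28.5, 2.12 and 4.75 CPM in YFP-positive libraries and 5.57, 7.67, 2.56 and 6.27 CPM in YFP-negative libraries. YFP-positive library 2 lay above all other libraries, and the other 3 YFP-positive libraries were below their partners. The log2 fold change of Cdh4 was 0.74 with all libraries, -0.12 with the block, and -0.75 with both libraries of number 2 left out.

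Cdh1, the E-cadherin of epithelia (chromosome 8, 106603351 to 106670246, plus strand), had 0, 15.4, 0.0800 and 15.4 CPM in YFP-positive libraries, against 2.56, 0.511, 0.135 and 6.63 CPM in YFP-negative libraries. High and near-absent libraries occurred in both groups. The log2 fold change of 1.64 had a 95% interval of 0.301- to 32.3-fold, and with the block it was 0.66. Of 14 epithelial markers, 8 passed the filter on low counts. All 14 had at least 1 count over the 8 libraries together, a bar too low to show epithelium. Their summed level was 20.0, 23.4, 13.2 and 193 CPM in YFP-positive libraries and 37.9, 21.8, 18.7 and 36.5 CPM in YFP-negative libraries. The marker Lgals4 alone made up most of that sum in YFP-positive libraries 1 to 3 and YFP-negative libraries 2 and 3, but not in the others. In YFP-positive library 3 it had 10.8 of the 13.2 CPM, and Krt8, of the same list, had 0 CPM. Epcam, an epithelial surface protein, had 0.896, 2.62, 0.0800 and 18.3 CPM in YFP-positive libraries and 2.95, 0.767, 0.0337 and 1.26 CPM in YFP-negative libraries. Library 4 was high for both Cdh1 and Epcam among YFP-positive cells, and library 3 was low for both in each group. Other libraries differed between the genes: YFP-positive library 2 matched library 4 in Cdh1 (15.4 CPM) but had 2.62 CPM of Epcam. Outside this marker list, YFP-positive library 2 held most reads of several low desmosomal cadherins, such as Dsc3 (431 of 437), described further on. Most reads of Dsc2 (117 of 136) came from YFP-positive library 4. These genes were named after their values were seen. Among YFP-negative cells, Cdh1 was highest in library 4 and Epcam in library 1. The part of epithelial RNA in the Cdh1 values was not tested.

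Cdh17, the liver-intestine cadherin of enterocytes (chromosome 4, 11758147 to 11817895, plus strand), did not follow Cdh1. It had 18.9, 5.52, 18.4 and 24.3 CPM in YFP-positive libraries and 17.4, 17, 24.8 and 11.2 CPM in YFP-negative libraries. YFP-positive library 3 had 0.0800 CPM of Cdh1 and 18.4 CPM of Cdh17, and YFP-positive library 2 had 15.4 CPM of Cdh1 and 5.52 CPM of Cdh17. The log2 fold change of Cdh17 was -0.07 without the block and -0.16 with it, and the sign turned to 0.20 with number 2 left out in both groups.

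Cdh13, or T-cadherin (ENSMUSG00000031841, chromosome 8, 118283733 to 119324921, plus strand), is anchored to the membrane by a lipid, has no cytoplasmic tail and binds adiponectin on endothelium and muscle. Its level was 34.8, 82.2, 42.1 and 43.7 CPM in YFP-positive libraries, against 35.5, 17.6, 25.2 and 17.9 CPM in YFP-negative libraries. The YFP-positive library was the higher of the pair in numbers 2, 3 and 4, and number 1 was nearly level. The ranges met only at number 1, where the YFP-negative library (35.5 CPM) lay above the lowest YFP-positive one (34.8 CPM). A log2 fold change of 1.07 (95% interval 1.30- to 3.41-fold) made it the 1 member past an unadjusted 0.05 in edgeR's unblocked fit, and the edgeR adjusted p was 0.99985. With the block it was 1.03, with an interval of 0.869- to 4.80-fold and an adjusted p of 0.540. Without both libraries of number 2 it was 0.62 unblocked and 0.66 blocked.

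Cells that express Cdh13 were also measured through their markers. Summed endothelial markers were 41.0, 84.5, 87.6 and 206 CPM in YFP-positive libraries and 68.4, 116, 51.1 and 49.9 CPM in YFP-negative libraries, higher in 2 of 4 pairs. Of the 10 endothelial markers, 8 passed the filter on low counts. Smooth muscle markers summed to 993, 671, 1032 and 1309 CPM in YFP-positive libraries and 740, 579, 856 and 919 CPM in YFP-negative libraries, higher in 4 of 4 pairs. The part of these cells in the Cdh13 values was not tested.

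Pcdh12, a protocadherin of endothelium, had 5.30, 3.31, 5.48 and 7.96 CPM in YFP-positive libraries and 7.46, 1.79, 3.78 and 4.60 CPM in YFP-negative libraries, higher in 3 pairs. Cdh5, the endothelial VE-cadherin that the name rule leaves out, had 0.103, 3.87, 11.1 and 31.4 CPM in YFP-positive libraries and 1.17, 13.8, 2.09 and 1.72 CPM in YFP-negative libraries. Number 4 was highest for both genes among YFP-positive cells, but the YFP-negative maxima fell in different libraries. Cdh19, a cadherin of Schwann-lineage cells that the rule also leaves out, had 0.138, 2.90, 1.20 and 1.54 CPM in YFP-positive libraries and 13.8, 2.90, 1.69 and 2.28 CPM in YFP-negative libraries. Its highest library, YFP-negative number 1, also had the highest enteric glia marker sum, at 47.9 CPM against 6.14 to 14.7 CPM in the other 7. Sox2, of that list, is at 0 in all 8 libraries but lies wholly under another gene of its strand, and such genes have no readable level in this table.

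Cdh23, Pcdh15 and Cdh16 have known roles outside the stroma. Cdh23 and Pcdh15, which form the tip link of hair cells, averaged 2.94 ± 1.04 and 2.82 ± 2.27 CPM in YFP-positive cells and 2.96 ± 1.28 and 2.52 ± 0.782 CPM in YFP-negative cells (SD, n = 4 each). Their log2 fold changes were -0.0050 for Cdh23 and 0.15 for Pcdh15 without the block, and both signs turned with it, to 0.0045 for Cdh23 and -0.10 for Pcdh15. Cdh16, the kidney-specific cadherin, had 0.654, 2.42, 3.4 and 1.19 CPM in YFP-positive libraries and 2.34, 2.13, 3.98 and 2.73 CPM in YFP-negative libraries. It was lower in 3 pairs and higher in number 2, with a log2 fold change of -0.56 (edgeR adjusted p = 0.99985).

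Libraries of number 2 were also apart for single members. Both were the 2 lowest of the 8, or the 2 highest, for 10 of 27 members, and the same held for 5978 of all genes (37.5%). They were the lowest for Pcdh7, Cdh11, Pcdh18, Cdh2 and Pcdh12, and the highest for Pcdh19, Cdh4, Cdh6, Cdh12 and Pcdh20.

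The clustered protocadherins could not be read from this table. Of the 58 members, 57 had 0 counts in all 8 libraries and Pcdha1 had 1 read, in a YFP-negative library. On GENCODE M21, all 57 lie wholly under other genes of the same strand on chromosome 18, among them the long gene models Gm42416, Gm37013 and Gm37388, which had 0 counts themselves. Pcdha1 has 9021 bases that no other gene of its strand covers. Cdh15, a muscle cadherin, was the remaining member at 0: it lies wholly inside Gm20388 (chromosome 8, 119910841 to 124345722, plus strand), which had 67780 counts.

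The same held for the whole table. All 465 protein-coding genes whose body is entirely covered by other genes of the same strand had 0 counts, 238 of them with no exon in common with those genes. By comparison, 279 of 3757 partly covered genes (7.43%), 174 of 734 genes inside an opposite-strand gene only (23.7%) and 2768 of 12001 genes with no overlap (23.1%) were at 0. Taf7 and Slc25a2, which lie on the opposite strand within the protocadherin arrays, had 3953 and 110 counts. Counting by strand over whole gene bodies, with reads dropped where bodies overlap, would give this pattern and is inferred from it, and a count of 0 at these 58 genes gives no level of expression.

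**Figure D4:**
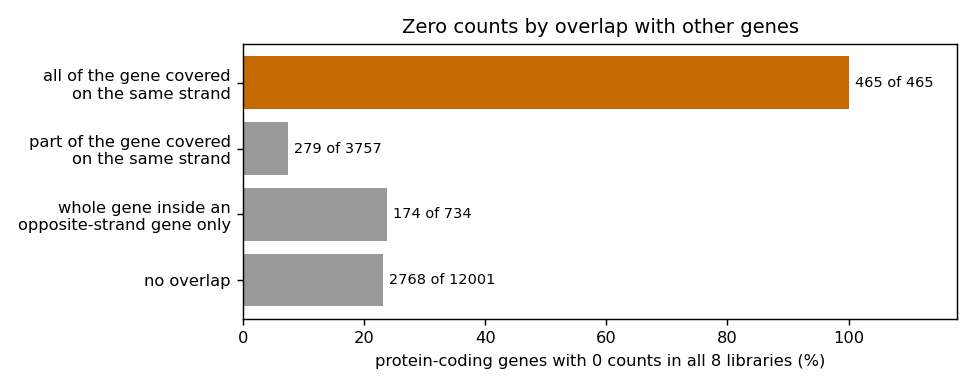
Share of protein-coding genes with 0 counts in all 8 libraries, by overlap with other annotated genes. All 465 genes covered entirely on their own strand are at 0, against 7.43% to 23.7% of the other 3 kinds.

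The proteins that act with cadherins were measured from lists of catenins, linkers, related cadherins, repressors, proteases and tail partners. Without the block edgeR called 0 of their 81 tested genes at an adjusted p of 0.05, and with it 4 (4.94%, against 2.28% of all genes). Among 11 catenins and p120 relatives tested, Jup, or plakoglobin, rose with the block: it had 144, 83.8, 147 and 167 CPM in YFP-positive libraries and 115, 76.0, 109 and 140 CPM in YFP-negative libraries, higher in 4 of 4 pairs (log2 fold change 0.29, blocked edgeR adjusted p = 0.0486, 0.99985 unblocked). Ctnnb1, or beta-catenin, averaged 313 ± 32.1 CPM in YFP-positive cells and 316 ± 44.5 CPM in YFP-negative cells, with a blocked log2 fold change of -0.0084. Ctnnd1, or p120, had 5.73 to 10.9 CPM over the 8 libraries, but only 1368 of its 50695 bases are free of other genes on its strand, so its level cannot be read either.

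Among 12 junction linkers and nectins, Afdn, or afadin, which ties nectins to actin, rose with the block. It had 239, 169, 147 and 212 CPM in YFP-positive libraries and 194, 138, 123 and 166 CPM in YFP-negative libraries (log2 fold change 0.30, blocked edgeR adjusted p = 0.0205). Lima1, or EPLIN, which links alpha-catenin to actin, fell with the block, with 272, 123, 192 and 203 CPM in YFP-positive libraries and 310, 159, 215 and 275 CPM in YFP-negative libraries (log2 fold change -0.29, adjusted p = 0.0403). Afdn was higher and Lima1 lower in 4 of 4 pairs. Among 12 tested Fat, Dachsous, flamingo and calsyntenin genes and Ret, Fat4, the giant cadherin that binds Dchs1, rose with the block: 143, 68.6, 117 and 201 CPM in YFP-positive libraries, against 104, 61.6, 87.5 and 136 CPM in YFP-negative libraries (log2 fold change 0.41, adjusted p = 0.0111). Dchs1 had a blocked log2 fold change of 0.06 (adjusted p = 0.871).

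Each of the 4 calls was lost in some fits that leave out 1 replicate number, and none was made without the block. In fits without number 1, 3 or 4 the adjusted p of Jup, Afdn and Fat4 was over 0.05 in each case, and that of Lima1 was over 0.05 without any of the 4 numbers. Jup was also lost with DESeq2-style (RLE) size factors and Lima1 with library sizes alone. The highest adjusted p was 0.312 for Jup, 0.120 for Afdn, 0.252 for Lima1 and 0.0960 for Fat4. The block medians of the lists were 0.22 for catenins, 0.12 for linkers and -0.05 for the Fat group, beside 0.00 over all genes. The part of the smooth muscle and fibroblast marker differences in these 4 calls was likewise not tested.

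The other lists, of 46 tested genes, had 0 calls by edgeR in either fit, with 1 gene at an unadjusted p of 0.05 or below without the block (2.17%, against 2.04% of all genes) and 8 with it (17.4%, against 11.1%). Zeb2, Tcf4 and Zeb1, which repress E-cadherin, averaged 695 ± 90.7, 555 ± 80.0 and 201 ± 34.4 CPM in YFP-positive cells and 706 ± 95.7, 498 ± 36.3 and 211 ± 31.0 CPM in YFP-negative cells (SD, n = 4 each). Of the Snail genes in that list, Snai2 was higher in 4 of 4 pairs and Snai1 lower in 4 of 4. Their blocked log2 fold changes were 0.57 for Snai2 and -0.20 for Snai1, with blocked edgeR adjusted p of 0.194 and 0.337. The sheddase genes Adam9 and Adam10 averaged 273 ± 45.9 and 98.9 ± 18.9 CPM in YFP-positive cells and 273 ± 60.4 and 94.9 ± 12.2 CPM in YFP-negative cells. Of the 12 regulators of the clustered arrays, Nipbl and Smc1a were the most abundant, with blocked log2 fold changes of 0.03 and -0.04. Of 15 tail partners tested, Ptprm, a phosphatase that binds cadherins, and Abi1, of the actin-branching complex, were the most abundant and were higher in 4 of 4 pairs, with blocked log2 fold changes of 0.20 and 0.18 and adjusted p of 0.186 and 0.227. In this list 6 of 15 genes went 1 way in 4 of 4 pairs, against 19.0% of all genes, with Fyn and Abi2 among them lower in YFP-positive cells. The same held for 5 of 12 linkers, 3 of 12 genes of the Fat group and 2 of 8 repressors. It held for 1 of 11 catenins, 1 of 10 proteases and 1 of 12 regulators. Of the 9 desmosomal cadherins, which hold epithelial desmosomes together, 8 did not pass the filter, and their reads came mostly from single libraries. YFP-positive library 2 held 431 of 437 reads of Dsc3, 230 of 239 of Dsg1a and 129 of 130 of Dsc1, genes named after their values were seen. Dsg2, the 1 gene tested, had 0.379, 3.31, 0.520 and 6.65 CPM in YFP-positive libraries and 0.779, 0.170, 0 and 0.253 CPM in YFP-negative libraries.

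**Figure D5:**
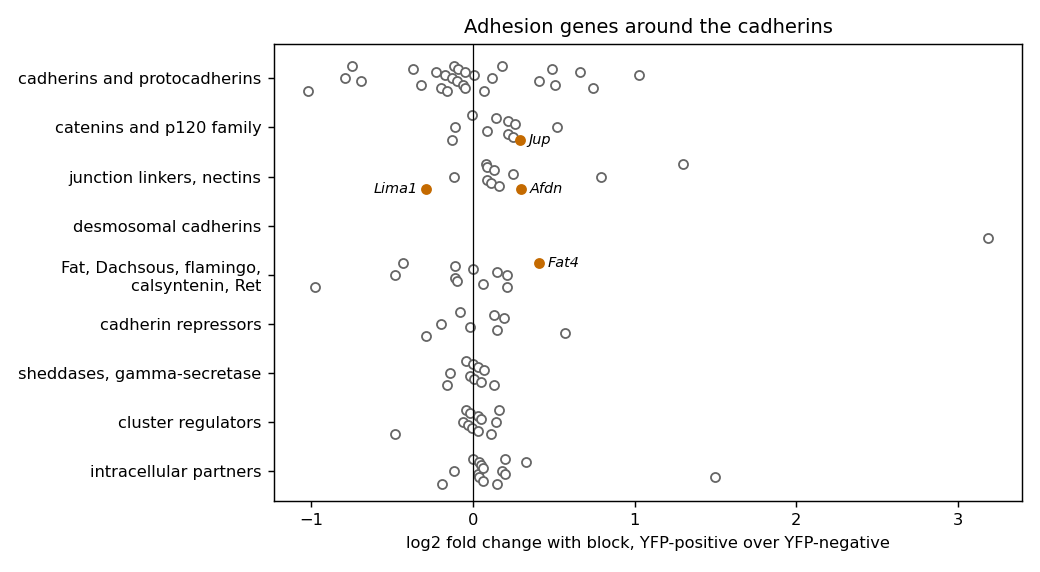
Blocked log2 fold change of YFP-positive over YFP-negative cells for the tested cadherins and protocadherins and for 8 lists of adhesion genes, each point a gene. Filled points, with names, mark the 4 genes at a blocked adjusted p of 0.05 or below: Jup, Afdn and Fat4 above 0 and Lima1 below.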

How the data were processed

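Per the submitters' processing notes, the authors' tools included featureCounts 2.0.1, DESeq2, STAR 2.7.3a and cutadapt 3.4, on mouse build GRCm38 (mm10); order, settings and annotation release are not given here. Libraries were made with a stranded kit for total RNA, per the labels' protocols. Raw counts were taken from the columns of the deposited table that are named by group and replicate number alone and hold whole numbers. A score, the authors' normalised value per the file headers, was left aside. The authors' log2 fold changes and p-values stand in the same table, per the file headers. The fold changes differed by at most 5.00e-04 from a DESeq2 fit with the replicate number as block (29762 genes) and by up to 22.9 from one without it; p-values were not compared. Further columns in the deposited table, such as the authors' fold ratio, were not used.

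From the counts, genes were filtered with filterByExpr, scaled by TMM and tested with edgeR 4.0.16 (robust quasi-likelihood, two-sided, R 4.3.3) on group alone, adjusted over all 15945 genes tested, with calls at 0.05 or below; CPM are TMM-scaled. Counts limit the precision of low members, and intervals are at 95%. The block was an alternative: deviations from the group means correlated at 0.233, 0.487, 0.376 and 0.376 between libraries of numbers 1 to 4, above the highest value of 0.0456 between numbers, so the numbers pair the libraries. Other alternatives were DESeq2 1.42.0, limma 3.58.1 (voom with quality weights), RLE, upper-quartile and unscaled library sizes, a looser filter (a count of 1) and a stricter one (CPM of 2 in 4 libraries), mitochondrial genes left out, and each library or pair left out; leaving out number 2 in both groups without the block was added after seeing the data. The members and lists were chosen with earlier results of these data known. Named members are any called, the 14 most abundant, 8 known for another cell type or for fibroblasts, the 2 most abundant of each class, and those with 1 direction in 4 of 4 pairs and a blocked log2 fold change of at least 0.5 in size. From each list, up to 2 called genes per direction or else the 2 most abundant are named, with some further genes beside them. Coordinates and overlaps are from GENCODE M21. The edgeR fits were also run on counts simulated from the blocked fit, with 200 genes changed. That check required only a median fold change close to the simulated one, and set no bar for true or false calls.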

Additional observations from a re-analysis of the deposited data

Results flagged for a closer look

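In 34 groups of 4 libraries (each named member in each group), 3 had 1 library far from the other 3. Chance gives about 1 in 20 such groups for independent, normally distributed values. The 34 groups share the same 8 libraries and are not independent, and an excess over chance was not tested. All 3 were libraries of replicate number 2, which also stood apart over all genes and had the lowest total count in each group. Cdh4 had 28.5 CPM in YFP-positive library 2, and the next highest YFP-positive library had 4.75 CPM. Cdh2 had 2.69 CPM in YFP-positive library 2, and the next lowest had 4.39 CPM. Pcdh7 had 261 CPM in YFP-negative library 2, and the next lowest had 412 CPM.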

How the results depend on the processing

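No member was called higher or lower, 0 in each direction, in any of the 30 alternatives, 13 of them with the replicate block that pairs the libraries. Of 510 recomputed log2 fold changes of the 17 named members, 77 turned sign and 0 passed the threshold; the cause was not tested. Pcdh7 (0.03 to 0.33), Cdh13 (0.62 to 1.39), Pcdh19 (-0.44 to -0.06), Pcdh10 (-0.87 to -0.49), Pcdh12 (0.07 to 0.73) and Cdh16 (-1.05 to -0.26) kept their direction in all 30. The lowest adjusted p was 0.0594 for Pcdh7 (edgeR, block, library sizes alone), 0.123 for Cdh13 and 0.131 for Pcdh10. Cdh4 was at -0.12 with the edgeR block (also with RLE factors, the looser filter and mitochondrial genes left out), -0.15 with blocked DESeq2, -0.10 with upper-quartile factors, -0.03 with library sizes alone and -0.11 with the stricter filter, all blocked, against 0.47 with blocked limma, and at -0.55 with unblocked limma and -0.75 without number 2. Pcdh15 was at -0.10 with the block (also with either filter, mitochondrial genes left out or blocked limma), -0.11 with blocked DESeq2 or RLE, -0.09 with blocked upper-quartile factors, -0.02 with blocked library sizes, -0.47 with limma and -0.52 without number 2. Cdh23 was at 0.0045 with the block, 0.0063 and 0.0055 with the looser and stricter filter and 0.0043 without mitochondrial genes (all blocked), 0.0062 and 0.02 (blocked) with upper-quartile factors, 0.07 and 0.09 (blocked) with library sizes, 0.02 with limma and 0.21 without number 2. Pcdh9 was at 0.02 with limma, 0.05 and 0.03 (blocked) with library sizes, and 0.03 without number 2. Cdh6 was at 0.07 with limma in both fits, 0.04 with library sizes in both, and 0.02 without number 2. Cdh17 was at 0.08 with limma, 0.02 with library sizes and 0.20 without number 2, and Cdh1 at -1.58 with limma unblocked and 1.55 blocked. Leaving out single libraries or pairs gave Cdh1 -1.05 to 2.85, Cdh11 -0.12 to 0.25, Cdh17 -0.59 to 0.25, Cdh2 -0.35 to 0.19, Cdh23 -0.48 to 0.26, Cdh4 -0.94 to 1.09, Cdh6 -0.25 to 0.26, Pcdh15 -0.55 to 0.41, Pcdh17 -0.40 to 1.28, Pcdh18 -0.34 to 0.02 and Pcdh9 -0.15 to 0.07. Depth limits the members under about 1 CPM, and the 58 members at 0 give no level under any setting.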
